A study of Mus musculus with 8 samples.

Results

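The 34 genes described here are general neuronal and synaptic genes: parts of the machinery that releases transmitter, enzymes and transporters that define a neuron's transmitter, receptors and the scaffold behind them, neuronal cytoskeleton, and RNA-binding proteins and long noncoding RNAs of neurons. They were taken by name from the array design, 34 of 37074 gene names, each represented by its brightest probe. The labels name astrocytes as the source of the RNA and spinal cord as the tissue, from C57Bl/6J mice. Expression was measured on 8 single-colour arrays, with 1 array for each group. The groups were mice deficient in Cx47 (a connexin, the gap junction protein that oligodendrocytes use to couple to astrocytes) and wild-type (WT) mice. Each genotype was sampled naive, with experimental autoimmune encephalomyelitis (EAE, an immune-driven model of multiple sclerosis), with EAE under iguratimod treatment, and in the chronic phase of EAE. Titles mark the Cx47-deficient mice as icKO and the WT mice as FL or F/F, and both chronic titles carry p50, a term not explained there. The driver of the deletion, the age of the mice, the number of mice behind an array and the way cells were isolated were not given in the sources used here.

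A neuron stores transmitter in vesicles and releases it when a SNARE complex pulls the vesicle onto the cell membrane after calcium entry. Receptors on the next cell turn the transmitter into current, and a scaffold behind the membrane holds them in place. Neurofilaments set the calibre of large axons and are released when axons are injured, so in multiple sclerosis and its models they are followed as a sign of axonal damage. Astrocytes take up transmitter at the synapse but are not the cells that make most of these proteins.

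Between 59.7% and 72.0% of spots on an array were well above background. In the order naive, EAE, EAE with iguratimod, chronic, the Cx47-deficient arrays had 65.8%, 65.5%, 62.6% and 71.3%. The WT arrays had 59.7%, 59.9%, 61.1% and 72.0% in that order. Median local background was 58 and 57 on the chronic Cx47-deficient and WT arrays and 73 to 82 on the others. The slide that held the 2 chronic arrays held no other array, so slide and chronic phase cannot be told apart in any comparison with them. All 14 astrocyte markers, among them Gfap, Aqp4 and Aldh1l1, were well above background on all 8 arrays, and so were all 10 markers of mature oligodendrocytes. Of 12 Hox genes of the cord, chosen after the data were seen, all 12 were well above background on 7 arrays and 10 were on the WT EAE array. Genes of striatal and cerebellar neurons were also well above background, on all 8 arrays for 6 of 8 and 9 of 9 genes. Precision is limited throughout by the number of arrays.

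All 34 neuronal genes were well above background on all 8 arrays, as were 55.0% of all gene names. Over the 8 arrays a neuronal gene spanned a median range of 0.84 on the log2 scale, against 1.08 for all 25905 genes tested. The range exceeded 1, a 2-fold span, for 13 of the 34 (38.2%), against 53.9% of all genes. The sets are unlike in signal, since only 20387 gene names were well above background on all 8 arrays. The 25905 genes thus include some not well above background on every array. The narrowest was Gria1, an AMPA-type glutamate receptor subunit, at 0.19. Widest were Meg3 at 2.61 and Snhg11 at 2.33, both long noncoding RNAs. By role, the median range was 0.60 for the 8 vesicle and SNARE genes, 0.78 for the 7 transmitter genes, 1.05 for the 8 receptor, postsynaptic and channel genes, 1.10 for the 6 cytoskeletal genes and 0.49 for the 5 RNA-binding and noncoding genes. In bulk RNA of this kind, fewer neurons and less RNA per neuron cannot be told apart.

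**Figure D1:**
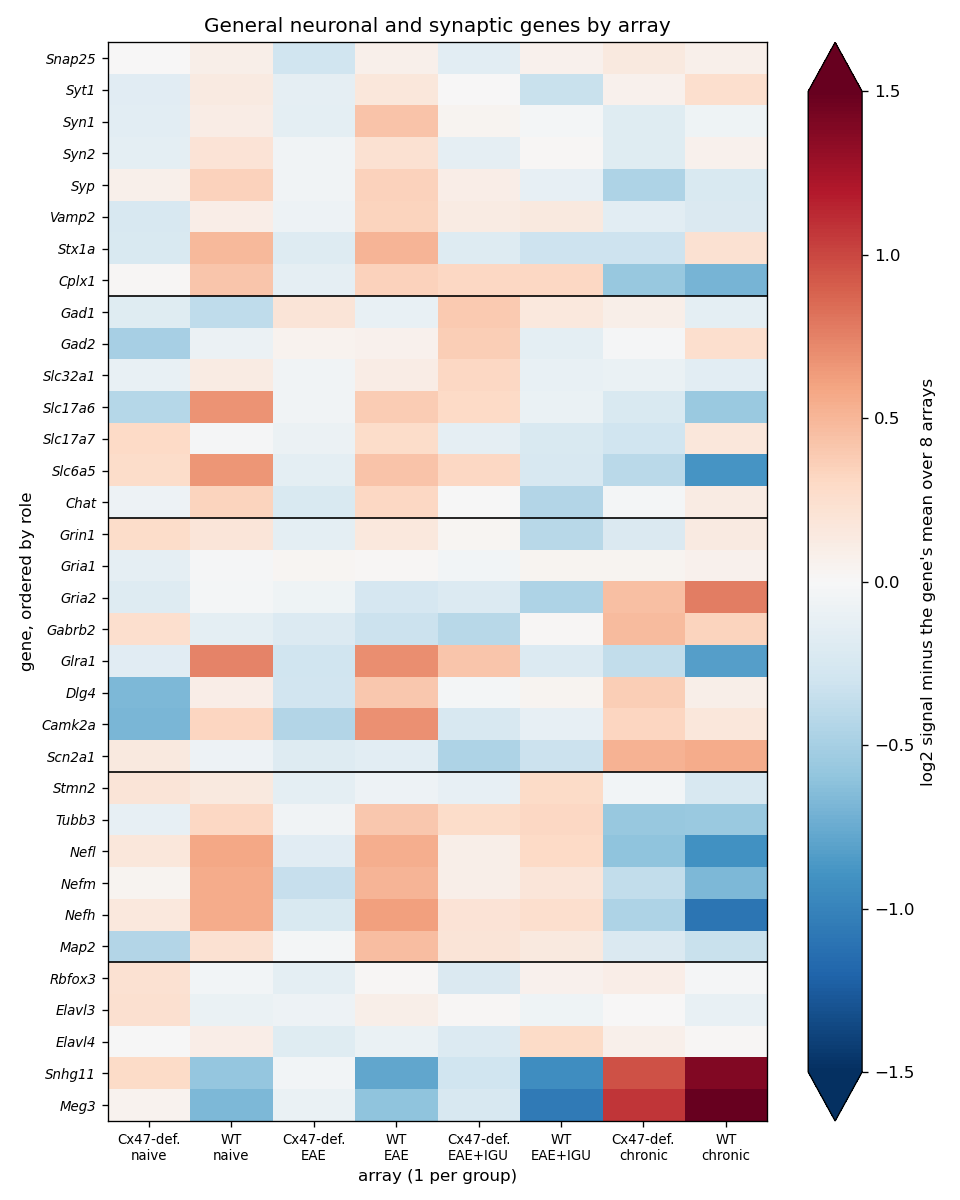
Log2 signal of the 34 genes (rows, grouped by role between black lines) on the 8 arrays (columns), each gene minus its mean over the arrays; red is above and blue below that mean, and the colour scale ends at 1.5 in each direction. Snhg11 and Meg3 stand highest on both chronic arrays, and the neurofilament genes Nefl, Nefm and Nefh lowest there.

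The vesicle and SNARE genes were the steadiest of the larger groups. Values are log2 signal relative to the array's 75th percentile, and each list of 4 runs in the order naive, EAE, EAE with iguratimod, chronic. Snap25, a SNARE protein of the presynaptic membrane, read 5.90, 5.60, 5.73 and 6.04 on the Cx47-deficient arrays, against 5.98, 5.97, 5.95 and 5.97 on the WT arrays, and Syt1, the calcium sensor of release, read 5.29, 5.33, 5.48 and 5.53 on the Cx47-deficient arrays, against 5.61, 5.64, 5.13 and 5.72 on the WT arrays. Both spanned less than 1 log2 unit. Syn2, a synapsin that tethers vesicles to one another, read 4.94, 5.02, 4.94 and 4.90 on the Cx47-deficient arrays, against 5.29, 5.31, 5.09 and 5.14 on the WT arrays. Its 4 Cx47-deficient arrays all lay below its 4 WT arrays, and it was the 1 member of 34 with that order, which 0.498% of all genes showed. No member showed the opposite order, which 0.224% of all genes did. The fitted genotype difference of Syn2 was -0.26 ± 0.11 (SE) and did not pass the test (adjusted p = 0.828, limma with Benjamini-Hochberg adjustment). A second RefSeq probe of Syn2 was lower on the Cx47-deficient array in the EAE and chronic pairs and higher in the other pairs.

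Stx1a, the plasma membrane syntaxin of the SNARE complex, had the largest genotype difference of the group at -0.46 ± 0.18, also short of the threshold (adjusted p = 0.828 in limma). Its values were 1.64, 1.68, 1.68 and 1.56 on the Cx47-deficient arrays, against 2.36, 2.38, 1.56 and 2.10 on the WT arrays. The Cx47-deficient array was lower in the naive, EAE and chronic pairs and higher in the iguratimod pair. Cplx1, a complexin that clamps the assembled SNARE complex, read 5.36, 5.21, 5.65 and 4.78 on the Cx47-deficient arrays, against 5.77, 5.69, 5.65 and 4.65 on the WT arrays. Both chronic arrays lay below the other 6. Syp, a membrane protein of vesicles, had the same order, with 4.30 and 4.54 on the chronic Cx47-deficient and WT arrays and 4.65 to 5.11 on the other 6. Syn1, another synapsin, and Vamp2, the SNARE protein of the vesicle, spanned 0.61 and 0.58.

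Among the transmitter genes, Gad1, one of the enzymes that make GABA, read 3.68, 4.05, 4.25 and 3.95 on the Cx47-deficient arrays, against 3.48, 3.75, 4.01 and 3.72 on the WT arrays. It was higher on the Cx47-deficient array of all 4 pairs, and the fitted difference was 0.24 ± 0.11 (adjusted p = 0.828, limma). EAE with iguratimod minus naive gave 0.55 ± 0.15 for this gene (adjusted p = 0.422, limma), and no other member had an unadjusted p under 0.05 in that comparison. Gad2, the other such enzyme, was lowest on the naive Cx47-deficient array at 2.08 and highest on the iguratimod Cx47-deficient array at 2.94. Slc32a1, the transporter that loads GABA and glycine into vesicles, stayed within 0.46.

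Slc17a6, a vesicular glutamate transporter of brainstem, thalamic and spinal neurons, read 0.49, 0.86, 1.21 and 0.68 on the Cx47-deficient arrays, against 1.58, 1.28, 0.81 and 0.36 on the WT arrays. The naive Cx47-deficient array was more than 2-fold below the naive WT array. Slc17a7, the vesicular glutamate transporter of cortical neurons, spanned 0.60 with no such order. Slc6a5, the glycine transporter of spinal and brainstem glycinergic neurons, read 1.10, 0.68, 1.13 and 0.42 on the Cx47-deficient arrays, against 1.49, 1.25, 0.59 and -0.06 on the WT arrays. Its chronic arrays were the 2 lowest. Chat, the enzyme that makes acetylcholine in motor neurons, lay between -1.22 and -0.44 on all 8 arrays.

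Receptor, postsynaptic and channel genes had values above and below the other arrays in chronic EAE. Gria2, the AMPA receptor subunit that limits calcium entry, read 3.81, 3.94, 3.80 and 4.45 on the Cx47-deficient arrays, against 3.97, 3.75, 3.54 and 4.77 on the WT arrays, and Scn2a1 (now Scn2a), a voltage-gated sodium channel of axons, read 3.46, 3.13, 2.86 and 3.84 on the Cx47-deficient arrays, against 3.24, 3.15, 2.99 and 3.87 on the WT arrays. For both genes the 2 chronic arrays were the highest. By its brightest probe Gabrb2, a GABA-A receptor subunit, had the same order. It read 3.86 and 3.73 on the chronic Cx47-deficient and WT arrays and 2.98 to 3.64 on the others. RefSeq probes A_52_P460687 and A_55_P2745205 of Gabrb2 had chronic minus EAE differences of 0.003 and 0.11. A further probe, A_52_P260709, had 2.16 but was well above background on 3 arrays. None of these further Gabrb2 probes had both chronic arrays highest. Glra1, the adult glycine receptor subunit of spinal cord and brainstem, had its 2 chronic arrays lowest and read 2.84, 2.71, 3.42 and 2.64 on the Cx47-deficient arrays, against 3.76, 3.71, 2.81 and 2.19 on the WT arrays. Grin1, the obligate NMDA receptor subunit, ranged over 0.70. Gria1 was highest on the chronic arrays by its brightest probe, within its range of 0.19, and lowest there by its other one.

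Camk2a, the kinase abundant behind forebrain glutamate synapses, read 3.74, 3.98, 4.19 and 4.74 on the Cx47-deficient arrays, against 4.75, 5.11, 4.30 and 4.59 on the WT arrays. On the naive and EAE arrays the Cx47-deficient value was 2-fold or more below the WT value, and in the other 2 pairs the values differed by 0.12 and 0.15. A second RefSeq probe of Camk2a was also lower on the Cx47-deficient array in the naive and EAE pairs, by less than 2-fold, at differences of -0.75 and -0.60. The fitted genotype difference was -0.52 ± 0.27 (adjusted p = 0.828 in limma). Dlg4, the scaffold protein PSD-95, read 1.26, 1.65, 1.91 and 2.31 on the Cx47-deficient arrays, against 2.04, 2.34, 1.98 and 2.02 on the WT arrays. Genes of striatal neurons, a tissue in which Camk2a is also made, had a median centred value of -1.54, 0.37, 0.66 and -0.83 on the Cx47-deficient arrays and 1.14, 0.49, -1.36 and 1.08 on the WT arrays. The same measure for 6 cortical genes was -0.18, -0.27, -0.27 and 0.10 on the Cx47-deficient arrays. It was 0.31, 0.43, -0.30 and 0.27 on the WT arrays. The part of striatal or cortical RNA in the Camk2a values was not tested.

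The 6 cytoskeletal genes had a median fitted chronic minus EAE difference of -0.67, and none passed the test. Nefl, Nefm, Nefh, Tubb3 and Map2 were below 0 in all 16 settings of the processing, while Stmn2 was -0.03 ± 0.21 and below 0 in 11 of 16. Nefl, the light neurofilament chain, read 5.58, 5.24, 5.50 and 4.80 on the Cx47-deficient arrays, against 5.99, 5.96, 5.70 and 4.51 on the WT arrays. Nefm, the medium chain, read 5.02, 4.63, 5.07 and 4.61 on the Cx47-deficient arrays, against 5.54, 5.49, 5.16 and 4.31 on the WT arrays. Nefh, the heavy chain, read 4.88, 4.49, 4.92 and 4.26 on the Cx47-deficient arrays, against 5.27, 5.33, 4.97 and 3.63 on the WT arrays. For all 3 chains both chronic arrays were the lowest of the 8, and WT was lower than Cx47-deficient among the chronic arrays while it was higher in the other 3 pairs. Tubb3, the neuronal beta tubulin, read 3.97, 4.04, 4.36 and 3.52 on the Cx47-deficient arrays, against 4.40, 4.49, 4.40 and 3.53 on the WT arrays, with the chronic arrays again lowest.

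By their brightest probes, the remaining cytoskeletal genes did not share that order. Stmn2, a microtubule regulator of growing axons, read 5.91, 5.57, 5.59 and 5.67 on the Cx47-deficient arrays, against 5.87, 5.64, 6.00 and 5.48 on the WT arrays. Map2, the microtubule-associated protein of dendrites, was lowest on the naive Cx47-deficient array at 4.37 and highest on the WT EAE array at 5.28. A second RefSeq probe of Map2 did have both chronic arrays lowest, at 0.17 and 0.11, against 0.29 to 1.38 on the other arrays. Of the further Map2 probes, A_51_P180754, A_55_P2738187 and A_55_P2059312 also had them lowest, and A_65_P07100 and A_52_P54666 had them highest.

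Rbfox3 (the antigen NeuN), Elavl3 and Elavl4, RNA-binding proteins of neurons, spanned 0.46, 0.35 and 0.49. By their brightest probes these nuclear and cell body markers were within 0.5 over all 8 arrays. A dimmer Rbfox3 probe (A_66_P102976) ran from -1.87 on the naive to -3.04 on the iguratimod Cx47-deficient array. The other Elavl4 probes had both chronic arrays lowest. In Elavl4 probe A_55_P2744788 these read -1.91 and -1.71, against -1.43 to -0.62 on the other arrays. The second Elavl3 probe above background stayed between 3.28 and 3.59. The 2 noncoding members behaved otherwise. Snhg11, a host transcript of small nucleolar RNAs, read 5.91, 5.59, 5.33 and 6.58 on the Cx47-deficient arrays, against 5.05, 4.85, 4.69 and 7.02 on the WT arrays. Meg3, the maternally expressed RNA of an imprinted locus, read 5.53, 5.38, 5.24 and 6.55 on the Cx47-deficient arrays, against 4.81, 4.87, 4.41 and 7.02 on the WT arrays. Both were higher on the Cx47-deficient array in the naive, EAE and iguratimod pairs, higher on the WT array in the chronic pair, and highest of all on the 2 chronic arrays. The share of spots well above background on an array had the same order within each pair and was also highest on the chronic arrays. Its part in the values of Snhg11 and Meg3 was not tested. Over the 8 arrays their values had a Pearson correlation of 0.988, given as a description since the arrays share slides and conditions. Snhg11 ran opposite to Tubb3 (-0.970), Cplx1 (-0.951) and Nefl (-0.921), and alongside Gria2 (0.913), over the same 8 arrays.

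**Figure D2:**
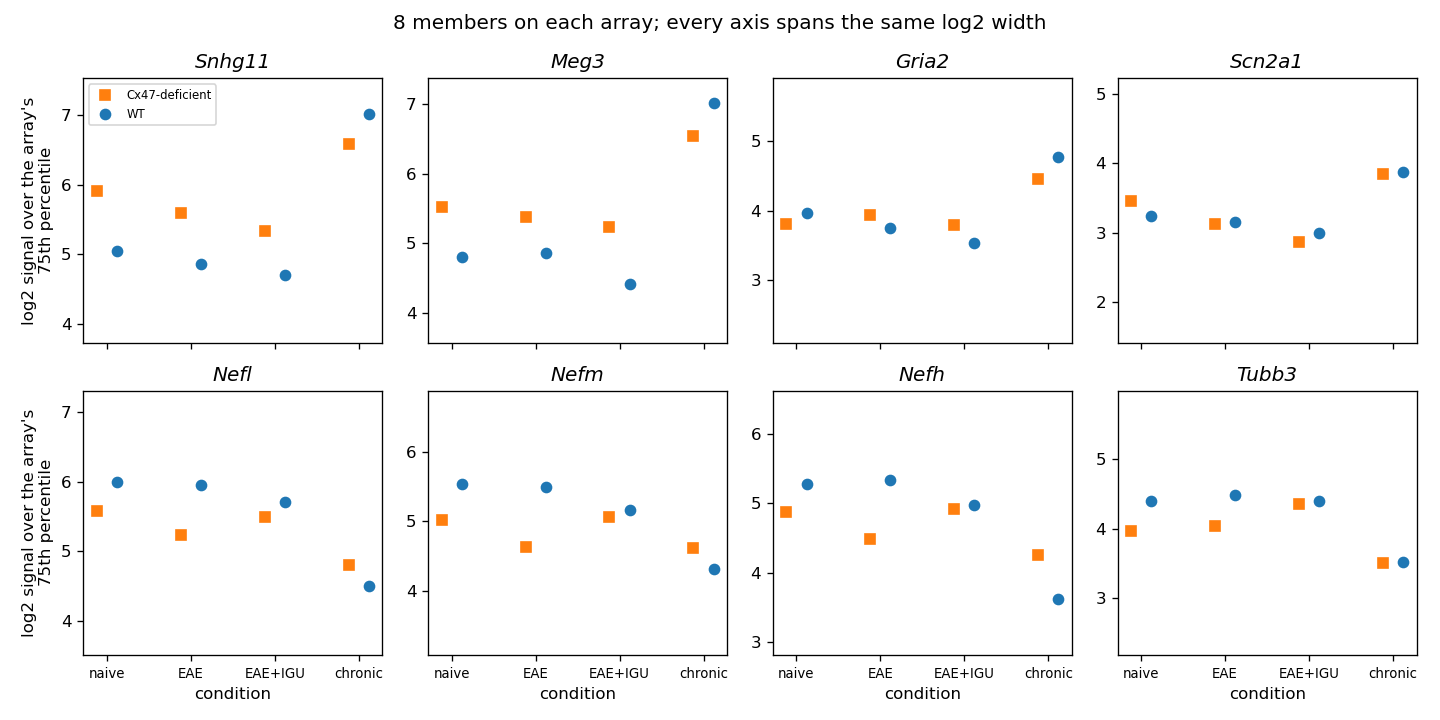
Log2 signal over the array's 75th percentile for 8 genes in the 4 conditions, with 1 point per array (squares, Cx47-deficient; circles, WT); all panels span the same log2 width. The chronic arrays are highest for Snhg11, Meg3, Gria2 and Scn2a1 and lowest for Nefl, Nefm, Nefh and Tubb3.

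The probes of the 2 noncoding RNAs are given here because their reading rests on several stretches of each transcript. Positions are on mm9, per the array design. Capitals mark the 45 bases that a pair of overlapping Snhg11 probes share, which makes those 2 probes no independent measurements.
Meg3 probe A_55_P2736010, chr12:110799833-110799892, plus strand: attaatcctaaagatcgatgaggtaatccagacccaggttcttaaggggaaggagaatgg
Meg3 probe A_51_P455997, chr12:110809678-110809737, plus strand: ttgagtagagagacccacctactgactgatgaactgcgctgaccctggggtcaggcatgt
Snhg11 probe A_55_P2488169, chr2:158211822-158211881, plus strand: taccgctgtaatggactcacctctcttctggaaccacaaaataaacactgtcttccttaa
Snhg11 probe A_51_P385114, chr2:158206523-158206582, plus strand: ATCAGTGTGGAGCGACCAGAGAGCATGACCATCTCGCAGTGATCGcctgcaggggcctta
Snhg11 probe A_55_P2047809, chr2:158206508-158206567, plus strand: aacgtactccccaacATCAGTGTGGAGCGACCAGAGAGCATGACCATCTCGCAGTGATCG
Each was well above background on all 8 arrays. The second Meg3 probe read 4.59, 4.07, 3.79 and 5.34 on the Cx47-deficient arrays, against 3.33, 3.07, 2.87 and 5.95 on the WT arrays. The first of the overlapping Snhg11 probes read 1.25, 0.55, 0.17 and 1.79 on the Cx47-deficient arrays, against -0.05, -0.28, -0.53 and 2.43 on the WT arrays. All 5 Meg3 probes and all 3 Snhg11 probes were highest on the 2 chronic arrays and, in the naive, EAE and iguratimod pairs, higher on the Cx47-deficient array.

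Whether Cx47 deficiency altered these genes regardless of condition was asked with a fit over all 8 arrays. None of the 34 passed an adjusted p of 0.05 (lowest 0.828, limma), and none of all 25905 genes did either (0% called). At an unadjusted p under 0.05 there were 0 members, against 4.43% of all genes. The median fitted difference of the members was -0.15, against 0.00 for all genes, and 26 of 34 were below 0. The member median was -0.06 under quantile normalization and in the authors' values, -0.08 with the mean of all probes and -0.32 under median centring, where that of all genes was -0.18. It ran from -0.22 without either iguratimod array to -0.07 without either EAE array. All 8 vesicle and SNARE genes and all 6 cytoskeletal genes were below 0, with medians of -0.19 and -0.24. Over 17 settings of the processing, Snap25, Syn2, Syt1, Nefh and Stmn2 were below 0 in 16, 16, 14, 15 and 12, and the other 9 of these genes in all 17. Of the 5 RNA-binding and noncoding genes 3 were above 0, Snhg11 at 0.45 ± 0.25 and Meg3 at 0.40 ± 0.25 being the largest.

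Pair by pair, the shift was not even. Cx47-deficient minus WT gave a member median of -0.29 in naive mice and -0.37 in EAE, but 0.06 under iguratimod and 0.06 in the chronic phase. The medians over all genes lay between -0.04 and 0.02 in these 4 pairs. In naive mice 24 of 34 members were lower in Cx47 deficiency, against 28 in EAE, 16 under iguratimod and 15 in the chronic phase. At 2-fold or more, Slc17a6 and Camk2a were lower in the naive pair, where 3.43% of all genes were, and Camk2a was lower in the EAE pair, where 1.21% were. No member was 2-fold higher in any of the 4 pairs, where 12.2%, 11.5%, 4.62% and 2.1% of all genes were, nor lower in the iguratimod and chronic pairs, where 4.5% and 1.56% were. By role, all 8 vesicle and SNARE genes were lower in the naive and EAE pairs, and 0 of 7 transmitter genes were lower in the iguratimod pair. Each of these differences is between 2 single arrays and was not tested.

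EAE and iguratimod were compared with the genotypes fitted together. EAE minus naive called 0 of 34 members (lowest adjusted p = 0.863, limma), against 0.251% of all genes, and 0 members had an unadjusted p under 0.05, as 7.17% of all genes had. The member median was -0.06, the same as the -0.06 over all genes, and it turned to 0.12 without the Cx47-deficient EAE array and 0.04 without the naive WT array. EAE with iguratimod minus EAE called 0 members and 0% of all genes (lowest adjusted p = 1, limma), with 0 members at an unadjusted p under 0.05 (2.1% of all genes) and a member median of -0.05. That median also had no settled sign, with -0.215 without the iguratimod Cx47-deficient array, 0.100 without the WT EAE array and 0.04 under median centring. EAE with iguratimod minus naive called 0 members (lowest adjusted p = 0.422, limma), against 0.00386% of all genes, with Gad1 the 1 member at an unadjusted p under 0.05 (7.46% of all genes). In single pairs, iguratimod minus EAE gave a member median of 0.18 in Cx47-deficient mice, with 24 of 34 higher, and -0.24 in WT mice, with 28 of 34 lower. No member reached 2-fold in either of those pairs, where 0.884% of all genes were higher and 7.32% lower for Cx47 deficiency, and 6.08% and 2.85% in WT mice. Nor did any member reach 2-fold in EAE minus naive, where the shares of all genes were 6.02% higher and 3.86% lower for Cx47 deficiency, and 4.55% and 5.28% in WT mice. In EAE with iguratimod minus naive, the shares were 6.03% higher and 13.1% lower for Cx47 deficiency, 4.73% and 3.37% in WT mice, and again 0 members. These comparisons share the EAE and naive arrays with one another.

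Chronic EAE, on its separate slide, gave the widest differences. Chronic minus EAE called Snhg11 and Meg3, both higher, at 1.58 ± 0.36 and 1.66 ± 0.35 on the log2 scale (adjusted p = 0.0481 and 0.0452, limma). That is 2 of 34, against 14.7% of all genes. The calls were lost when any 1 array other than the chronic Cx47-deficient one was left out, with adjusted p between 0.0603 and 0.270 for Snhg11 and between 0.0587 and 0.255 for Meg3 in limma. Without the chronic WT array the differences were 0.99 and 1.08. Scn2a1 at 0.72 ± 0.17, Tubb3 at -0.74 ± 0.20, Gria2 at 0.77 ± 0.21, Nefl at -0.94 ± 0.28 and Cplx1 at -0.74 ± 0.22 came next, with adjusted p of 0.0516, 0.0608, 0.0644, 0.0711 and 0.0748 in limma. Nefl was -0.57 without the chronic WT array. Under quantile normalization Nefl, Cplx1 and Tubb3 were -0.55, -0.34 and -0.47, and under median centring Scn2a1, Gria2, Cplx1 and Tubb3 were 0.32, 0.37, -1.14 and -1.14. With the mean of all probes Scn2a1 was 0.23 and Gria2 1.32. At an unadjusted p under 0.05 there were 9 members, 5 higher and 4 lower, against 41.1% of all genes. The member median was -0.06, against 0.02 over all genes. Its sign turned to 0.21 under quantile normalization and in the authors' processed values, where the median over all genes was -0.04, so no direction is given for the list.

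**Figure D3:**
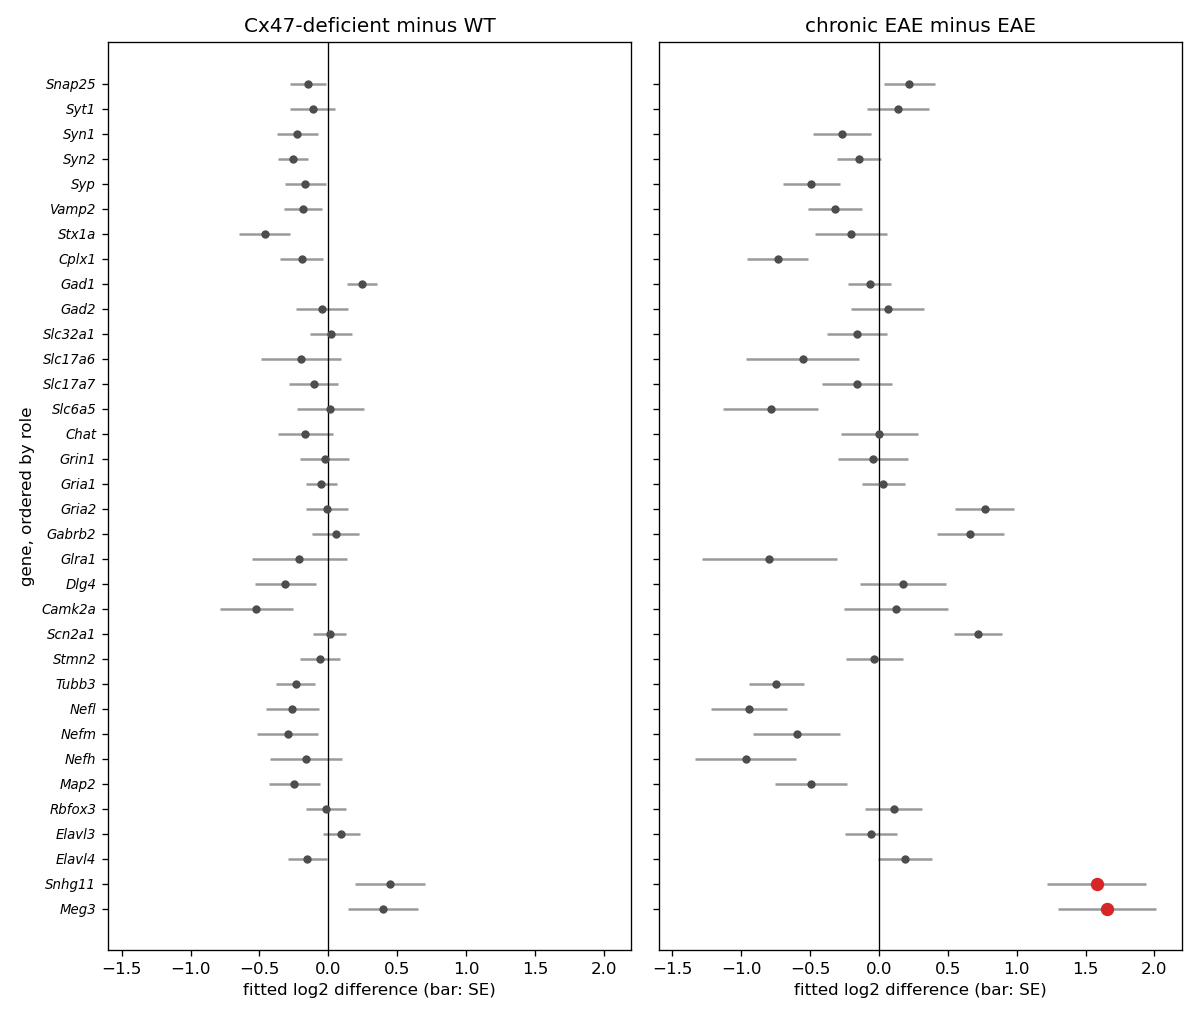
Fitted log2 differences of the 34 genes with their standard errors (bars), Cx47-deficient minus WT on the left and chronic EAE minus EAE on the right; red points passed an adjusted p of 0.05. No gene passed on the left, and Snhg11 and Meg3 passed on the right.

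Chronic minus naive called 0 members (lowest adjusted p = 0.0745, limma), against 0.926% of all genes. There were 11 members at an unadjusted p under 0.05, 4 higher and 7 lower, against 32.5% of all genes. Nefl stood at -1.13 ± 0.28, Nefh at -1.13 ± 0.37, Slc6a5 at -1.11 ± 0.35, Meg3 at 1.62 ± 0.35 and Snhg11 at 1.32 ± 0.36. Without the chronic WT array these were -0.76, -0.60, -0.81, 1.04 and 0.73 in the same order. By the brightest probe, both chronic arrays lay above the other 6 for 6 members (Gria1, Gria2, Gabrb2, Scn2a1, Snhg11 and Meg3), or 17.6% of the 34, against 29.2% of all genes. They lay below the other 6 for 8 members (Syp, Cplx1, Slc6a5, Glra1, Tubb3, Nefl, Nefm and Nefh), or 23.5%, against 24.3%. The share that was lower was therefore near that of all genes.

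Each genotype had its own pair of chronic and naive arrays. In WT mice, Snhg11 and Meg3 were 2-fold or more higher on the chronic array (22.4% of all genes were) and Cplx1, Slc17a6, Slc6a5, Glra1, Nefl, Nefm and Nefh were 2-fold or more lower (9.93% were). In Cx47-deficient mice, Dlg4, Camk2a and Meg3 were 2-fold or more higher (11.5% were), and no member was 2-fold lower (2.57% were). Other RefSeq probes of Dlg4 and Camk2a, well above background on all 8 arrays, ran the other way in that pair. Camk2a probe A_55_P2149209 read -1.46 on the chronic and -0.50 on the naive Cx47-deficient array, and Dlg4 probe A_51_P302256 read -3.93 and -3.22 on the same arrays. Against EAE, the chronic Cx47-deficient array had Meg3 2-fold or more higher (14.9% of all genes were) and no member lower (5.85% were). The chronic WT array had Gria2, Snhg11 and Meg3 higher (23.3% were) and Cplx1, Slc6a5, Glra1 and the 3 neurofilament genes lower (12.9% were). Whether the genotypes differ in this was not tested. The astrocyte and mature oligodendrocyte lists also had their lowest medians on the chronic arrays. The centred median of the 14 astrocyte genes was -0.27 and -0.92 on the chronic Cx47-deficient and WT arrays and between -0.01 and 0.31 on the other 6. For the 10 oligodendrocyte genes it was -0.83 and -1.28, and between -0.11 and 0.90 on the other 6. The 6 oligodendrocyte precursor genes had -0.21 on both chronic arrays but -0.26 on the WT iguratimod array. The 8 microglia genes had their lowest centred medians there, -0.35 and -0.41, while their summed signal, 99.5 and 111 times the 75th percentile, was above the 95.8 and 96.3 of the naive arrays. Gfap was called lower in chronic minus EAE, at -2.70 ± 0.22 (adjusted p = 0.0236, limma), and so was Mbp, myelin basic protein, at -1.96 ± 0.32 (adjusted p = 0.0382, limma). Of the 10 oligodendrocyte genes, 3 were called lower (Mbp, Mog and Cnp) and 1 higher (Ermn). Of the 14 astrocyte genes, 2 were called lower (Gfap and Gja1) and 0 higher. Among all genes 14.7% were called in that comparison. The summed signal of the 12 Hox genes was 4.73 and 3.28 on the chronic Cx47-deficient and WT arrays. It was between 5.63 and 10.06 on the other 6. It was lower on the Cx47-deficient array in the naive and EAE pairs and higher in the other pairs. Glra1 and Slc6a5 had the same order within pairs. The 3 neurofilament genes had it in all but the iguratimod pair. The part of these shifts, or of the amount of cord RNA, in the neuronal values was not tested.

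Other genes of the same roles did not all follow, and their counts are to be read against the 14.7% of all genes called in chronic minus EAE. Of 17 further vesicle and SNARE genes, 0 were called higher and 1 lower in chronic minus EAE, the SNARE gene Vamp1 at -1.10 ± 0.25 (adjusted p = 0.0491, limma), and the list's median was -0.11. Of 13 further glutamate receptor and postsynaptic genes, 2 were called higher and 0 lower, a share near that of all genes, with a median of 0.32. They were Grin2a, an NMDA receptor subunit, 7.98-fold higher, and Shank2, a postsynaptic scaffold, 2.35-fold higher (adjusted p = 0.0432 and 0.0382, limma). Among 11 further cytoskeletal and RNA-binding genes, 1 was called lower, Ina, the internexin that assembles with neurofilaments, at -1.01 ± 0.23 (adjusted p = 0.0486, limma). None of 10 further inhibitory transmission genes and none of 8 further channel genes were called, with medians of 0.08 and 0.35. Of 3 neighbours of Meg3 at its imprinted locus, the noncoding Mirg was called higher at 1.61 ± 0.36 (adjusted p = 0.0481, limma), Rian was not at 0.77 ± 0.19 (adjusted p = 0.0534), and the protein-coding Dlk1 read -0.54, -0.26, 0.45 and -0.73 on the Cx47-deficient arrays, against 0.60, 0.63, -0.06 and -0.86 on the WT arrays.

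Genes of striatal and cerebellar neurons ranged far more over the arrays than the general neuronal genes. The 8 striatal genes had a median range of 3.05 and the 9 cerebellar genes 3.38, against 0.84 for the 34. Adora2a, an adenosine receptor of striatal neurons, read -5.96, -1.11, -0.65 and -1.79 on the Cx47-deficient arrays, against 0.48, -0.41, -2.82 and 1.37 on the WT arrays, and was well above background on 7 of 8 arrays. Gabra6, a GABA-A receptor subunit of cerebellar granule cells, read 3.98, 2.84, 1.67 and 3.09 on the Cx47-deficient arrays, against 1.81, -0.24, 3.57 and 2.32 on the WT arrays. The naive Cx47-deficient array was lowest for Adora2a and highest for Gabra6, and the WT EAE array was lowest for Gabra6. The 6 cortical genes had a median range of 0.89. Over the same arrays the centred median of the 34 general neuronal genes stayed between -0.14 and 0.25.

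**Figure D4:**
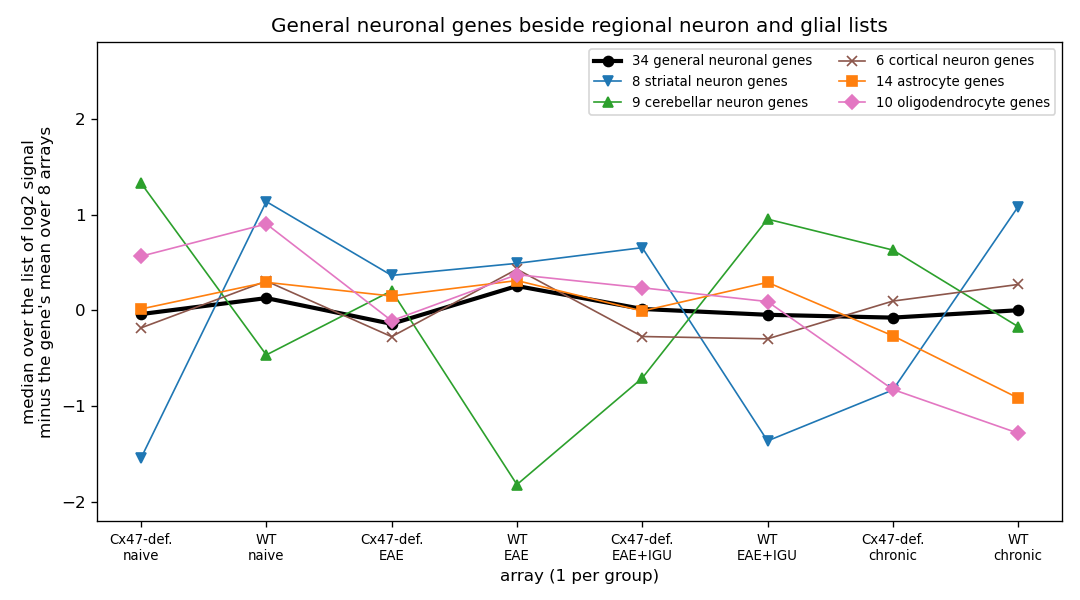
Median over each list of log2 signal minus the gene's mean over 8 arrays, for the 34 general neuronal genes (black) and 5 other lists, on each array. The 34 genes stay between -0.14 and 0.25, while the striatal and cerebellar lists swing between -1.82 and 1.33 and the astrocyte and oligodendrocyte lists are lowest on the chronic arrays.

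Probes of the same gene often differed in their order of arrays. Of the 34 members, 24 had 2 or more probes well above background on at least 2 arrays. For 13 of these, probes of the same gene gave chronic minus EAE differences of opposite sign, and for 12 the probes were more than 1 log2 unit apart. The pattern went with the accession that names a probe in the array design, a grouping chosen after the values were seen and described here without a test. In 16 genes with both kinds, 31 probes carried a RefSeq accession of the NM or NR type, called RefSeq here. Another accession named 23 probes, such as an Ensembl transcript, a cDNA clone or, in Gad1 and Map2, a RefSeq model transcript (XM). The other probes had centred medians of 0.15, -0.08, -0.01 and 1.03 on the Cx47-deficient arrays and -0.74, -0.74, -0.77 and 1.45 on the WT arrays, while the RefSeq probes stayed between -0.09 and 0.14. The same held in all 4270 genes with both kinds, where the other probes had medians of 0.26, -0.04, -0.25 and 0.74 on the Cx47-deficient arrays and -0.38, -0.54, -0.41 and 0.91 on the WT arrays. It was therefore not particular to neuronal genes.

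The following probes show the contrast. The first Snap25 probe carries a RefSeq accession, and its mm9 positions span 3780 bases for 60 bases of probe, so it crosses at least 1 intron. The second Snap25 probe and those of Stmn2 and Syt1 carry Ensembl accessions and lie on 60 contiguous bases of the genome.
Snap25 probe A_52_P165961, chr2:136595900-136599679, plus strand: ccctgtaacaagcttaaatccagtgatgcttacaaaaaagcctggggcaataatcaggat
Snap25 probe A_55_P2716291, chr2:136588586-136588645, plus strand: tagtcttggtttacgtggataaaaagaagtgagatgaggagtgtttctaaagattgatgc
Stmn2 probe A_55_P2935146, chr3:8548549-8548608, plus strand: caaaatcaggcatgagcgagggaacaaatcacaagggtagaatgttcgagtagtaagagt
Syt1 probe A_55_P2718032, chr10:108336500-108336559, minus strand: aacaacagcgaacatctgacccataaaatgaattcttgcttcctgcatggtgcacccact
The RefSeq Snap25 probe read 2.87, 2.49, 2.47 and 2.57 on the Cx47-deficient arrays, against 2.68, 2.61, 2.93 and 2.73 on the WT arrays. The Ensembl one read 0.93, -0.04, -0.24 and 1.47 on the Cx47-deficient arrays, against -0.87, -1.13, -0.71 and 1.83 on the WT arrays. The first stayed within 0.46, and the second was highest on both chronic arrays and lower on the WT array in the other 3 pairs. Stmn2's Ensembl probe read -0.43, -1.58, -2.47 and 0.09 on the Cx47-deficient arrays, against -2.78, -3.61, -2.40 and 0.20 on the WT arrays, beside a RefSeq probe for Stmn2 that spanned 0.52. Syt1's Ensembl probe read 1.53, 0.99, 0.82 and 2.48 on the Cx47-deficient arrays, against 0.38, 0.11, 0.08 and 2.97 on the WT arrays.

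The order of arrays in these Ensembl probes resembled that of Meg3. Over the 8 arrays the correlation with the Meg3 probe was 0.936 for Snap25, 0.985 for Syt1 and 0.866 for Stmn2, as a description of arrays that share slides. Accession was no strict divide. One RefSeq probe of Gria2 (A_65_P00930) read -0.26, -0.53, -0.74 and 0.97 on the Cx47-deficient arrays, against -1.34, -1.47, -1.26 and 1.13 on the WT arrays, with a correlation of 0.974. In the other direction, 3 Map2 probes with other accessions and the Ensembl probe of Nefl were lowest on the chronic arrays. In the 16 genes with both kinds, both chronic arrays were highest in 8 of 31 RefSeq probes (25.8%) and in 15 of 23 others (65.2%), against 18.8% of RefSeq and 57.6% of other probes over all 4270 such genes, so these shares were near those of genes in general.

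**Figure D5:**
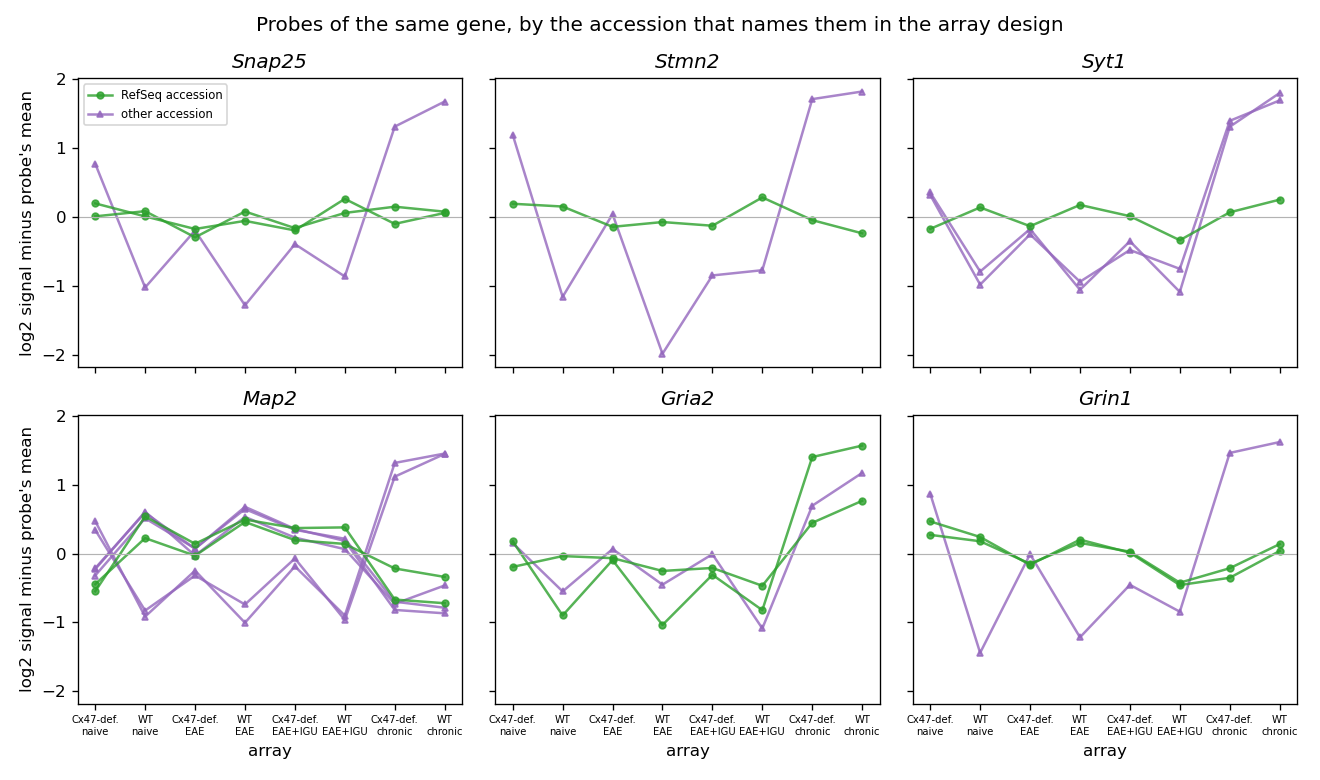
Log2 signal of each probe of 6 genes minus that probe's mean over 8 arrays, by array; circles are probes named by a RefSeq accession and triangles probes with another accession. In Snap25, Stmn2, Syt1 and Grin1 the RefSeq probes stay near 0 while the others are highest on both chronic arrays.

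All neurofilament probes above background had both chronic arrays lowest. A second probe of Nefm and an exon-spanning probe of Glra1 are shown because they repeat, on a separate stretch of the mRNA, the order of the brightest probe.
Nefm probe A_51_P145220, chr14:68738193-68738252, minus strand: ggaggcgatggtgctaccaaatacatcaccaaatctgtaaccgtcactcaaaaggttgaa
Glra1 probe A_51_P445532, chr11:55349979-55379742, minus strand: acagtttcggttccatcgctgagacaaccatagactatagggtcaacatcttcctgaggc
The Nefm probe read 3.19, 2.76, 3.22 and 2.51 on the Cx47-deficient arrays, against 3.71, 3.69, 3.33 and 2.22 on the WT arrays. The Glra1 probe, whose positions span 29764 bases, read -3.15, -3.49, -2.70 and -3.95 on the Cx47-deficient arrays, against -2.10, -2.51, -3.13 and -4.03 on the WT arrays. Both were lowest on the 2 chronic arrays. The second probes of Nefl and Nefh also had both chronic arrays lowest, with chronic minus EAE differences of -0.81 and -1.02. A single probe represented Cplx1 and Tubb3. Scn2a1 had 4 probes, and their chronic minus EAE differences ran from -0.22 to 0.72, and both chronic arrays were highest in the brightest probe alone.

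Among the 10 genes outside the list whose values ran most like the mean centred profile of the 34, by Pearson correlation over 8 arrays, were Pdgfa (0.985), Cd99l2 (0.967), Smarcal1 (0.966), Agpat1 (0.962), BB345836 (0.956), Zmat3 (0.956), 9330102E08Rik (0.955), Add1 (0.953) and Nckipsd (0.953). The profile itself spanned only from -0.13 on the Cx47-deficient EAE array to 0.18 on the WT EAE array. Each of the 10 genes had a range between 0.37 and 0.60. With 25905 genes and 8 arrays, correlations of this size are a description only.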

How the data were processed

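RNA of 8 groups was measured on 1 single-colour Agilent array each. The deposited scanner files hold spot intensity, background-subtracted by Feature Extraction 10.7.1.1 per the file headers (the submitters' processing notes name version 9.5.1.1). The authors' deposited table holds processed intensity with a median of 50.2 in every column; it served as an alternative. Probe positions are mm9, per the file headers.

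Log2 was taken of the processed signal, and percentile 75 of the array was then subtracted. Control and outlier spots were left out and spots of a probe averaged. A gene was its brightest probe, kept when well above background on at least 2 arrays, which left 25905 genes and removed no member. Of the 34 names, 33 matched a RefSeq (GRCm38.p6) symbol and 1 a synonym. Condition plus genotype was fitted with limma 3.58.1 in R 4.3.3 over all 8 arrays (3 residual degrees of freedom) and adjusted by Benjamini-Hochberg over all genes. With 1 array per group the spread is how far genotype differences vary between conditions, which may be technical. Differences between single arrays were not tested. The script was tested on simulated data, in Cx47-deficient minus WT and in EAE minus naive. Of 200 genes changed by 1 log2 unit, it recovered 0 in either comparison. At 2 log2 units it recovered 180 and 132 of 200 in that order. A member that was not called is therefore not shown to be unchanged. Members and lists were chosen with earlier results of these data known. Named were all 34 members, a part of the up to 4 widest-ranging genes of each other list, some of the genes called in those lists and genes most like the members' profile. Alternatives were other scaling, background correction, filters, probe averaging, the authors' values and leaving out each array. The values of the deleted gene and of 1 gene most like the members' profile are not reported here. The Hox list and the split by probe accession were added after the data were seen.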

Additional observations from a re-analysis of the deposited data

Results flagged for a closer look

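The median of the 34 genes had opposite signs in the 2 genotypes, or in 2 conditions, in 8 comparisons of single arrays. None of these differences was tested. EAE minus naive gave -0.14 in Cx47-deficient and 0.01 in WT mice. EAE with iguratimod minus EAE gave 0.18 in Cx47-deficient and -0.24 in WT mice, and minus naive it gave 0.04 and -0.23 in the same genotypes. Chronic EAE minus naive gave 0.03 in Cx47-deficient and -0.15 in WT mice. Cx47-deficient minus WT gave 0.06 with iguratimod and 0.06 in chronic EAE, against -0.29 in naive mice and -0.37 in EAE. Every group holds 1 array, so no group could be examined for a value that stands apart from its replicates.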

How the results depend on the processing

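No paired analysis was possible because each group holds 1 array and genotype and condition are already terms of the fit. In chronic minus EAE, the 2 members called (14.7% of all genes) became 4 under quantile normalization (16.5%), 5 under median centring (24.7%), 8 with normexp (29%), 4 in the authors' values (16.2%), 0 with no filter (2.81%), 6 among genes above background on all 8 arrays (23.3%), 4 with the mean of all probes (16.5%), and 0 to 2 when 1 array was left out (0.00386% to 10.2%). The share over all genes moved along with the members' count. In chronic minus naive, the 0 called became 5 with normexp (15% of all genes) and 1 among genes above background on all 8 arrays (8.94%). The member median in chronic minus EAE was 0.209 under quantile normalization, -0.462 under median centring (where all genes moved to -0.38), 0.209 in the authors' values, and -0.237 to -0.0198 when 1 array was left out. In chronic minus naive it was 0.164, -0.468 and 0.164 under those 3 settings. Leaving out 1 array moved the EAE minus naive median between -0.136 and 0.121, the highest without the Cx47-deficient EAE array. In Syn2 the genotype difference turned to 0.0056 with the mean of all probes. Of 288 recomputed values of 19 differences of single genes, 250 kept direction and side of the threshold, 16 lost the call, 21 gained one and 1 changed sign. Nefl, Nefm, Nefh, Tubb3 and Cplx1 stayed below 0 and Gria2, Snhg11 and Meg3 above 0 in all 16 settings of chronic minus EAE. The causes were not tested.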
